A study of Mus musculus with 6 samples.

Results

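The genes of cholesterol and fatty acid synthesis were examined as a set of 27 genes chosen by their biochemical role: the enzymes of the mevalonate and sterol branches, the enzymes of fatty acid synthesis and desaturation, and the regulators that set their transcription. Of 37620 gene rows in the count tables, 26 were matched to members by Ensembl identifier; no identifier could be matched to Hmgcs1, the synthase that opens the mevalonate branch, and its RNA level was not analysed here. All 26 matched genes passed the filter on low counts, which left 17489 genes for testing. RNA sequencing had been run on 3 groups of mouse cells with 2 libraries each. The first group was wild-type embryonic stem cells (ESC) of the J1 strain, grown with LIF and serum on mitomycin-C inactivated mouse fibroblast feeders that were removed before use. The second was wild-type neural progenitor cells (NPC) differentiated from J1 ESC in culture. The third, Phc1-KO, carried the genotype Phc1-/- (Phc1 encodes a subunit of Polycomb repressive complex 1) and was also derived from J1 cells. The title and design call the Phc1-KO cells embryonic stem cells, whereas their cell type entry reads NPC. The sources used here do not say whether Phc1-KO was 1 clone or several, how the gene was disrupted, or whether the 2 libraries of a group came from separate cultures beyond calling them biological replicates, so the p-values measure the spread between these libraries.

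Cells build cholesterol from acetyl-CoA through mevalonate, farnesyl pyrophosphate, squalene and lanosterol, and build fatty acids from the same acetyl-CoA by carboxylation, chain growth and desaturation. Both branches are transcribed under the SREBP factors, which the Srebf1 and Srebf2 genes encode. The SREBP precursors are held in the endoplasmic reticulum by Insig proteins when sterols are plentiful and are cut free when sterols run low. In the brain, which lipoproteins of the blood hardly enter, neural cells make their own cholesterol, and both growing stem cells and progenitors need lipid for new membrane.

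Library totals ran from 15226214 to 21893821 reads on genes. Levels are given as counts per 1000000 reads on genes (CPM), scaled between libraries by the trimmed mean of M values. Phc1 itself was counted at 459.7 and 460.5 CPM in ESC, 40.8 and 34.6 CPM in NPC, and 326 and 267 CPM under the Phc1-KO label. Its level was therefore lower in both Phc1-KO libraries than in ESC (log2 fold change -0.63 ± 0.15 SE), but most of its RNA was still counted, and since the deleted part is not given these gene counts do not check the knockout. The pluripotency markers (6 genes, among them Pou5f1 and Nanog) summed to 2074 and 2089 CPM in ESC, 6.97 and 7.34 CPM in NPC, and 2021 and 2470 CPM in the libraries labelled Phc1-KO. That sum put Phc1-KO near ESC, with 4 of the 6 log2 fold changes positive and 2 negative. Nanog was called lower in Phc1-KO than in ESC (log2 fold change -0.83 ± 0.16, adjusted p = 0.0245) and Esrrb gave -0.79 ± 0.25 (adjusted p = 0.0926). Pou5f1 lay above ESC in both Phc1-KO libraries (0.62 ± 0.18, adjusted p = 0.0701), as did Zfp42 (0.28 ± 0.19), and neither was called. The neural progenitor markers (6 genes) summed to 161 and 170.1 CPM in ESC, 2969 and 1210.0 CPM in NPC, and 153 and 125 CPM in Phc1-KO. The 2 NPC libraries differed from each other in some astrocyte genes but not in all: Aqp4 was at 15.9 and 458 CPM and Gfap at 3.81 and 112 CPM, whereas Aldh1l1 was at 77.5 and 78.0 CPM and Slc1a3 went the other way, at 747 and 479 CPM. The 2 ESC libraries were much closer to each other than those of the other groups: a chi-square over genes per degree of freedom was 1.44 for the ESC pair, 47.0 for NPC and 48.8 for Phc1-KO. The ESC pair differed by more than sampling noise and was kept as 2 libraries, and results are also given with it counted as 1.

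Promoter sequences are shown for 4 of the genes, since a shared transcriptional control is the textbook property of the set. These 4 sequences are examples that all hold the CCAAT box marked below, which not every member promoter holds. They are taken from RefSeq on build GRCm38.p6, which is not the build of the counts (mm9), and run from 250 bases before to 50 after the annotated start, 5′ to 3′ on the gene's strand. Hsd17b7 (chr1:169969156-169969455, minus strand), Cyp51 (chr5:4104648-4104947, minus), Acss2 (chr2:155517793-155518092, plus) and Srebf2 (chr15:82147019-82147318, plus) stand for the sterol enzymes, the fatty acid genes and the regulators. Capitals mark the CCAAT box on either strand (CCAAT or its reverse complement ATTGG), the site known for the factor NF-Y.
Hsd17b7: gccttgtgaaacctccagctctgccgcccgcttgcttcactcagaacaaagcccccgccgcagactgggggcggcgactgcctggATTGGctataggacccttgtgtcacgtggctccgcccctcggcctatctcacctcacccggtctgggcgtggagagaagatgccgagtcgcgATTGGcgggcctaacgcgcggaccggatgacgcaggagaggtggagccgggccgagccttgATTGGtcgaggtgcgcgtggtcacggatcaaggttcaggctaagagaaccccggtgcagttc
Cyp51: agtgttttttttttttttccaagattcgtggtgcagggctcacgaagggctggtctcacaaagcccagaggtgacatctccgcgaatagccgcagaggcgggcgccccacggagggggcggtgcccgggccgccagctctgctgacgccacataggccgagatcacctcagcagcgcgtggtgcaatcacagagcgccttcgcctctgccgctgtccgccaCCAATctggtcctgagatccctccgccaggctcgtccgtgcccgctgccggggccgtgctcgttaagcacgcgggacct
Acss2: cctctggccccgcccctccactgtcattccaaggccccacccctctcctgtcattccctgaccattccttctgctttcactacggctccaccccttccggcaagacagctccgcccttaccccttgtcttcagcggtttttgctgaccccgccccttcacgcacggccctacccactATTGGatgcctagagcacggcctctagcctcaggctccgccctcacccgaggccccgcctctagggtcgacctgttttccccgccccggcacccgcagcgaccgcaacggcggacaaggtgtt
Srebf2: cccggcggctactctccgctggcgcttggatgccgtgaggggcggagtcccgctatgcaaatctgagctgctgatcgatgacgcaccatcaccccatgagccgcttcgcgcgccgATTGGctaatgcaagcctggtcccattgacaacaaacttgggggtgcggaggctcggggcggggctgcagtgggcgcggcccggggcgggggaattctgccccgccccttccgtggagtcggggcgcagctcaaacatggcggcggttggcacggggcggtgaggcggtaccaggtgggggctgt
Hsd17b7 held 3 CCAAT boxes, at 165, 73 and 12 bases before the start. Cyp51 held 1 at 29 bases, Acss2 1 at 73 bases and Srebf2 1 at 135 bases before the start. The RefSeq table matched 21 of the 27 genes with 26 promoters. The CCAAT box was present in 20 of the 26 member promoters (76.9%), against 37.4% of all 32851 promoters of the same length in the table. Those of Acaca and Elovl6 were among the member promoters without it. The Sp1 box (GGGCGG or CCGCCC) was present in 19 of 26 (73.1%), against 35.7% of all. It is not marked above, where Hsd17b7 held 3, Cyp51 1, Acss2 5 and Srebf2 5. The E box CACGTG was present in 3 of 26 (11.5%), against 7.15% of all. The sterol regulatory element in the form TCACNCCAC, or GTGGNGTGA on the other strand, was present in 1 of 26 (3.85%), that of Hmgcs1, against 1.24% of all. These are exact matches of letters in a fixed window, so a site that differs by 1 letter was not counted. They say nothing of binding.

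Summed over the 26 genes, the level was 3628 and 3580.2 CPM in ESC, 5835 and 5531 CPM in NPC, and 2827 and 2703 CPM in Phc1-KO. The 3 groups did not overlap in this sum, in which a few abundant genes weigh most. The gene with the highest CPM was Acly in ESC and Phc1-KO and Scd2 in NPC. Individual genes were tested with edgeR's quasi-likelihood F test fitted to all 6 libraries, and a gene was called at a Benjamini-Hochberg adjusted p below 0.05 over all 17489 genes.

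In NPC against ESC, 12 of the 26 genes rose and 1 fell, with a median log2 fold change of 0.32 against -0.01 over all genes. Of all genes tested, 61.3% were called in that comparison, 30.4% as higher and 30.9% as lower, so the total share of members called (50%) was below that background while the share called higher (46.2%) was above it. Both NPC libraries lay above both ESC libraries for 18 of the 26 genes, as they did for 41.8% of all genes, and below them for 4, against 43.4% of all genes. A call on 1 gene was therefore common in this comparison.

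In Phc1-KO against ESC, 7 of the 26 genes fell and 0 rose by edgeR, with a median of -0.36 against 0.00 over all genes. At an unadjusted edgeR p below 0.05 there were 13 of the 26 genes, against 29.3% of all genes. DESeq2 called 8 lower and 0 higher. Of all genes tested, 10.7% were called, 4.91% as higher and 5.75% as lower. Both Phc1-KO libraries lay below both ESC libraries for 19 of the 26 genes, against 34.2% of all genes. The log2 fold change was negative for 23 genes and positive for Mvk, Hsd17b7 and Elovl6. The calls rested on the close ESC pair and on 1 Phc1-KO library: the count of lower genes was 0 with the ESC pair counted as 1, 0 without ESC replicate 1, 0 without ESC replicate 2 and 0 without Phc1-KO replicate 2, while it was 6 without Phc1-KO replicate 1 and 10 without NPC replicate 1 or without NPC replicate 2. All genes called in the comparison went from 1864 to 145 with the ESC pair counted as 1, to 112 without ESC replicate 1, to 92 without ESC replicate 2 and to 138 without Phc1-KO replicate 2. The fold changes of the 7 called genes kept their sign over all 17 alternatives. The log2 fold change ran from -1.10 to -0.93 for Stard4, from -1.02 to -0.91 for Scd1 and from -1.05 to -0.60 for Scd2. It ran from -0.94 to -0.83 for Acss2 and from -0.94 to -0.63 for Dhcr7. For Srebf2 it ran from -0.80 to -0.51 and for Sc4mol from -0.68 to -0.52. Some genes that were not called had wide ranges, such as Fdps from -1.10 to -0.28.

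In Phc1-KO against NPC, 17 of the 26 genes were lower and 0 higher by edgeR, with a median of -0.93 against 0.00 over all genes. At an unadjusted edgeR p below 0.05 there were 18 of the 26 genes, against 68.7% of all genes. DESeq2 called 17 lower and 0 higher. Of all genes tested, 64.9% were called, 32.3% as higher and 32.7% as lower. The total share of members called (65.4%) was near that background. All of those calls were lower, so the share called lower was above its background. Both Phc1-KO libraries lay below both NPC libraries for 21 genes, against 40.5% of all genes. The comparisons with ESC share the ESC libraries, so their values are given side by side and not set against each other.

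**Figure D1:**
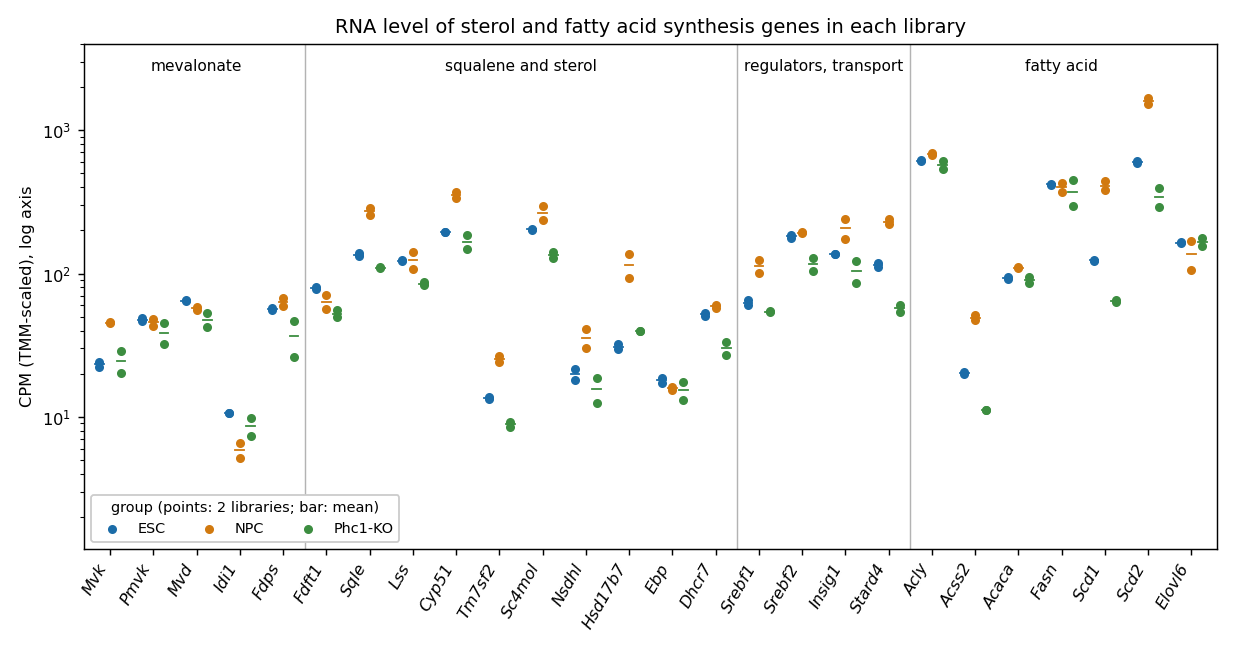
Level of each of the 26 genes in every library (CPM on a log axis; 2 points a group, the bar is their mean), ordered by role. NPC points lie highest for most sterol and desaturase genes, with Scd2 at 1522 and 1672 CPM at the top, and Phc1-KO points lie lowest for Stard4, Acss2, Scd1 and Scd2.

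In the mevalonate branch, which makes the isoprenoid units, Mvk rose in NPC, Idi1 fell in NPC, and no gene was called in Phc1-KO against ESC. Mvk, mevalonate kinase, was at 24.1 and 22.4 CPM in ESC, 45.4 and 45.6 CPM in NPC, and 20.2 and 28.6 CPM in Phc1-KO. Both NPC libraries stood above all others, and the Phc1-KO pair spanned the ESC pair. Its log2 fold change was 0.97 ± 0.20 in NPC against ESC (adjusted p = 0.00451), a call that was lost without ESC replicate 2. In Phc1-KO against NPC it was -0.90 ± 0.20 (adjusted p = 0.00572).

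Idi1, the isomerase that interconverts the 2 isoprenoid pyrophosphates, was at 10.7 and 10.6 CPM in ESC, 6.58 and 5.19 CPM in NPC, and 7.38 and 9.82 CPM in Phc1-KO. NPC was the lowest group, with no overlap with either other group. The log2 fold change in NPC against ESC was -0.86 ± 0.25 (adjusted p = 0.0199), which passed no more with the ESC pair counted as 1 or without either ESC library or NPC replicate 2. It was the sole member called lower in NPC. In Phc1-KO against NPC the log2 fold change of Idi1 was 0.55 ± 0.25 (edgeR adjusted p = 0.087), which was not called. Idi1 and Elovl6 were the 2 members with a positive value in that comparison.

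Fdps, which makes farnesyl pyrophosphate, was at 57.2 and 55.7 CPM in ESC, 67.8 and 59.2 CPM in NPC, and 26.3 and 46.4 CPM in Phc1-KO. The Phc1-KO libraries were the lowest but differed widely between themselves. Against NPC the log2 fold change was -0.80 ± 0.26 (adjusted p = 0.0274), a call lost without NPC replicate 1, without Phc1-KO replicate 1, with the ESC pair counted as 1 and in a fit of only the groups compared. Against ESC it was -0.63 ± 0.26 (adjusted p = 0.154). Pmvk and Mvd, the kinase and the decarboxylase that follow Mvk, were called in none of the 3 comparisons. Pmvk ranged from 32.0 to 49.0 CPM and Mvd from 42.1 to 65.2 CPM over the 6 libraries, each lowest in Phc1-KO replicate 1. For Mvd the 95% interval in Phc1-KO against ESC ran from -0.81 to -0.08 on the log2 scale and for Pmvk from -0.76 to 0.14.

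In the squalene and sterol branch of 10 enzymes, 5 rose in NPC against ESC and 0 fell, beside 30.4% and 30.9% of all genes. In Phc1-KO against ESC 2 fell and 0 rose, beside 5.75% and 4.91% of all genes. In Phc1-KO against NPC 8 were lower, beside 32.7% of all genes. The largest difference was in Hsd17b7, which reduces the 3-keto group during removal of the C4 methyl groups (mm9 chromosome 1, 171879666 to 171899372, minus strand). It was read at 32.3 and 29.5 CPM in ESC, 137 and 93.5 CPM in NPC, and 40.01 and 39.7 CPM in Phc1-KO. NPC stood far above the others, and it was the sole member with both Phc1-KO libraries above both ESC libraries. NPC exceeded ESC by 1.90 ± 0.20 in log2 fold change (3.72-fold, adjusted p = 0.00026), called in all 17 alternative analyses. Phc1-KO against ESC gave 0.37 ± 0.20 (adjusted p = 0.261).

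Sqle, squalene epoxidase and a rate-limiting step of the branch (mm9 chromosome 15, 59146632 to 59162747, plus strand), was at 133 and 138 CPM in ESC, 287 and 257 CPM in NPC, and 111 and 109 CPM in Phc1-KO. The 3 groups did not overlap. The log2 fold change was 1.004 ± 0.12 in NPC against ESC (adjusted p = 0.000453), -0.30 ± 0.12 in Phc1-KO against ESC (adjusted p = 0.152) and -1.30 ± 0.12 in Phc1-KO against NPC (adjusted p = 0.000147).

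Cyp51, lanosterol demethylase, was at 195 and 193 CPM in ESC, 369 and 339 CPM in NPC, and 147 and 185 CPM in Phc1-KO. NPC stood apart, and both Phc1-KO libraries lay below both ESC libraries, replicate 2 by a small margin and replicate 1 by a wider one. The log2 fold change in NPC against ESC was 0.87 ± 0.15 (adjusted p = 0.00197). Tm7sf2, a sterol reductase, was at 13.3 and 13.7 CPM in ESC, 26.8 and 24.0 CPM in NPC, and 8.54 and 9.24 CPM in Phc1-KO. Its log2 fold change was 0.91 ± 0.17 in NPC against ESC (adjusted p = 0.00343), lost with the ESC pair counted as 1 or without ESC replicate 1. In Phc1-KO against ESC it was -0.60 ± 0.18 (adjusted p = 0.0753). Tm7sf2 shares 15.3% of its exon bases with 1110014N23Rik on the same strand, so its counts are uncertain.

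Nsdhl, the dehydrogenase that works with Hsd17b7 in C4 demethylation, was at 21.6 and 18.1 CPM in ESC, 41.2 and 30.3 CPM in NPC, and 18.8 and 12.6 CPM in Phc1-KO. NPC lay above the others, while ESC and Phc1-KO overlapped. Its NPC call (log2 fold change 0.85 ± 0.25, adjusted p = 0.0236) was lost with the ESC pair counted as 1 and without ESC replicate 1, ESC replicate 2 or NPC replicate 1.

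Dhcr7, the reductase of the last step to cholesterol, was at 50.5 and 53.1 CPM in ESC, 60.5 and 57.8 CPM in NPC, and 33.4 and 26.9 CPM in Phc1-KO. The groups did not overlap, with Phc1-KO well below the others. It fell in Phc1-KO against ESC by 0.78 on the log2 scale (SE 0.16, adjusted p = 0.027). In NPC against ESC the difference was 0.19 ± 0.15 (adjusted p = 0.311).

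Sc4mol, the older name of the C4 methylsterol oxidase Msmo1, was at 204 and 201 CPM in ESC, 297 and 236 CPM in NPC, and 128 and 141 CPM in Phc1-KO. Phc1-KO was the lowest group and NPC the highest, without overlap. In Phc1-KO against ESC the log2 fold change was -0.59 ± 0.15 (adjusted p = 0.0484), the weakest of the 7 calls, which also ended without Phc1-KO replicate 1, with DESeq2 size factors, with no filter and with a replicate block. In NPC against ESC it was 0.39 ± 0.15 (adjusted p = 0.0519).

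The other 3 enzymes of the branch were not called against ESC in either group by the main fit. Fdft1, squalene synthase, was at 80.6 and 77.6 CPM in ESC, 70.9 and 56.2 CPM in NPC, and 49.4 and 55.7 CPM in Phc1-KO, and 26.9% of its exon bases overlap Ctsb on the opposite strand. Lss, lanosterol synthase, was at 123 and 123 CPM in ESC, 141 and 108 CPM in NPC, and 86.9 and 83.3 CPM in Phc1-KO. Both genes lay below ESC in both Phc1-KO libraries, with adjusted p of 0.0581 for Fdft1 and 0.0695 for Lss by edgeR. In that comparison Fdft1 was called lower in 6 of 17 alternatives, DESeq2 among them. Lss was called lower there in 4, total-count scaling among them. In NPC against ESC Fdft1 was called lower in 2 alternatives, upper-quartile scaling among them. Lss was lower in Phc1-KO than in NPC (log2 fold change -0.55 ± 0.15, adjusted p = 0.016), lost with the ESC pair counted as 1 and without any 1 of 5 libraries, NPC replicate 2 being the exception. Ebp, the sterol isomerase, stayed between 13.1 and 18.7 CPM in all 6 libraries and was called nowhere.

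**Figure D2:**
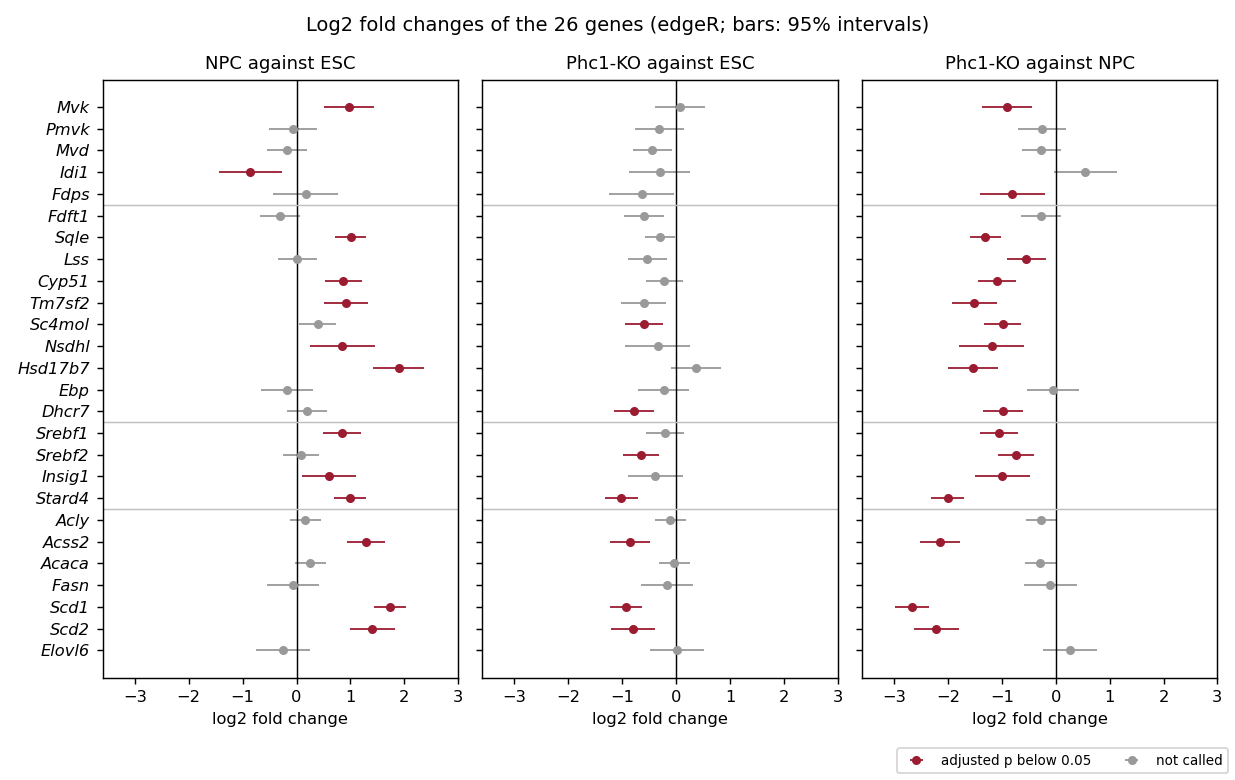
Log2 fold change of each gene with its 95% interval in the 3 comparisons, ordered by role from the mevalonate branch (top) to fatty acid synthesis (bottom); coloured points have an adjusted p below 0.05. In NPC against ESC 12 points lie to the right and 1 to the left among the coloured ones, and in both Phc1-KO comparisons every coloured point lies to the left.

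Of the 4 regulators and transporters, 3 rose in NPC against ESC, 2 fell in Phc1-KO against ESC, and all 4 were lower in Phc1-KO than in NPC. The shares over all genes were 30.4%, 5.75% and 32.7% in the same order. Stard4, a carrier that moves cholesterol between membranes (mm9 chromosome 18, 33359009 to 33373516, minus strand), separated all 3 groups. It was read at 112 and 119 CPM in ESC, 239 and 220.2 CPM in NPC, and 60.4 and 53.9 CPM in Phc1-KO. The groups were far apart in relation to their spread. The log2 fold change was 0.99 ± 0.13 in NPC against ESC (adjusted p = 0.000597), -1.02 ± 0.13 in Phc1-KO against ESC (adjusted p = 0.00819) and -2.01 ± 0.13 in Phc1-KO against NPC (adjusted p = 3.81e-05). It had the largest fall of the 26 genes in Phc1-KO against ESC.

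The SREBP genes differed in pattern. Srebf1, whose products drive mainly fatty acid genes, was at 65.0 and 60.5 CPM in ESC, 100.1 and 124 CPM in NPC, and 54.7 and 53.8 CPM in Phc1-KO. It was raised in both NPC libraries and slightly under ESC in both Phc1-KO libraries. Its log2 fold change was 0.84 ± 0.15 in NPC against ESC (adjusted p = 0.00243) and -0.21 ± 0.15 in Phc1-KO against ESC (adjusted p = 0.385). Srebf2, whose product drives mainly sterol genes (mm9 chromosome 15, 81977696 to 82035806, plus strand), was at 187 and 178 CPM in ESC, 196 and 191 CPM in NPC, and 128 and 104 CPM in Phc1-KO. ESC and NPC were close together, and both Phc1-KO libraries were lower. Its log2 fold change was 0.08 ± 0.14 in NPC against ESC (95% interval -0.24 to 0.41) and -0.65 ± 0.14 in Phc1-KO against ESC (adjusted p = 0.0325).

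Insig1, the sterol-sensing anchor of the SREBP pathway and itself an SREBP target, was at 136 and 137 CPM in ESC, 239.6 and 175 CPM in NPC, and 85.8 and 123 CPM in Phc1-KO. The groups did not overlap, but both the NPC and Phc1-KO pairs were widely spread. Its NPC call was marginal (log2 fold change 0.60 ± 0.21, adjusted p = 0.043) and ended in 8 of 17 alternatives, among them the removal of NPC replicate 1 or of either ESC library. In Phc1-KO against NPC it was -0.99 ± 0.22 (adjusted p = 0.00569).

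Among the 7 fatty acid genes the differences were confined to 3 (42.9%), by the calls in all 3 comparisons. Acss2, Scd1 and Scd2 were higher in NPC than in ESC, lower in Phc1-KO than in ESC, and lower in Phc1-KO than in NPC. The shares over all genes were 30.4%, 5.75% and 32.7% in the same order. The other 4, Acly, Acaca, Fasn and Elovl6, were called in none by the main fit. In Phc1-KO against NPC the main 95% interval was -0.56 to 0.03 for Acly and -0.57 to -0.003 for Acaca. Both passed as lower there with total-count scaling. Acly also passed without Phc1-KO replicate 2, and Acaca without Phc1-KO replicate 1. Without NPC replicate 1, Elovl6 passed as lower in NPC against ESC (-0.62, adjusted p = 0.0102) and as higher in Phc1-KO against NPC (0.64, adjusted p = 0.00839). Without Phc1-KO replicate 1, Fasn passed as lower in Phc1-KO against NPC (-0.43, adjusted p = 0.0388). Scd1 and Scd2, the desaturases that put the double bond into stearate and palmitate, lie near each other on mm9 chromosome 19 (Scd1 from 44468941 to 44482199, minus strand; Scd2 from 44368166 to 44381354, plus strand). Scd1 was at 123 and 124 CPM in ESC, 440.4 and 381 CPM in NPC, and 65.7 and 63.4 CPM in Phc1-KO. Scd2 was at 612 and 591 CPM in ESC, 1522 and 1672 CPM in NPC, and 397 and 289.9 CPM in Phc1-KO. The order was the same for both genes, with NPC highest and Phc1-KO lowest and no overlap.

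Scd1 exceeded ESC in NPC by 1.73 ± 0.13 in log2 fold change (3.33-fold, adjusted p = 6.37e-05). In Phc1-KO it was under ESC by a log2 fold change of -0.94 ± 0.13 (adjusted p = 0.00954), and under NPC by -2.67 ± 0.13 (6.37-fold, adjusted p = 1.5e-05), which was the widest difference of any member. For Scd2 the log2 fold change was 1.41 ± 0.17 in NPC against ESC (adjusted p = 0.000508), -0.81 ± 0.17 in Phc1-KO against ESC (adjusted p = 0.0323) and -2.22 ± 0.18 in Phc1-KO against NPC (adjusted p = 8.01e-05). The 2 desaturases are close in sequence, and how reads shared between them were handled is known only as far as unique alignment.

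Acss2, which makes acetyl-CoA from acetate (mm9 chromosome 2, 155343684 to 155411460, plus strand), was at 19.98 and 20.4 CPM in ESC, 51.4 and 47.3 CPM in NPC, and 11.2 and 11.1 CPM in Phc1-KO. It was the least abundant fatty acid gene and one of the most clearly separated. Its log2 fold change was 1.29 ± 0.15 in NPC against ESC (adjusted p = 0.000407), -0.86 ± 0.15 in Phc1-KO against ESC (adjusted p = 0.0201) and -2.14 ± 0.16 in Phc1-KO against NPC (adjusted p = 5.72e-05).

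The core of the fatty acid branch was closer between groups. Acly, which makes acetyl-CoA from citrate, was at 617 and 611 CPM in ESC, 677 and 696 CPM in NPC, and 537 and 605 CPM in Phc1-KO. Acaca, acetyl-CoA carboxylase, was at 93.9 and 91.0 CPM in ESC, 109 and 111 CPM in NPC, and 94.3 and 86.0 CPM in Phc1-KO. Both were highest in NPC by a small margin, with log2 fold changes against ESC of 0.16 (95% interval -0.13 to 0.45) for Acly and 0.25 (-0.03 to 0.54) for Acaca. Fasn, fatty acid synthase, was at 421 and 418 CPM in ESC, 430 and 371 CPM in NPC, and 452 and 294 CPM in Phc1-KO, with the groups overlapping. Elovl6, which lengthens palmitate, was at 165 and 163 CPM in ESC, 169 and 106 CPM in NPC, and 176 and 155 CPM in Phc1-KO, also overlapping. The 95% intervals in Phc1-KO against ESC were -0.66 to 0.32 for Fasn and -0.49 to 0.52 for Elovl6, which do not exclude changes of those sizes.

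**Figure D3:**
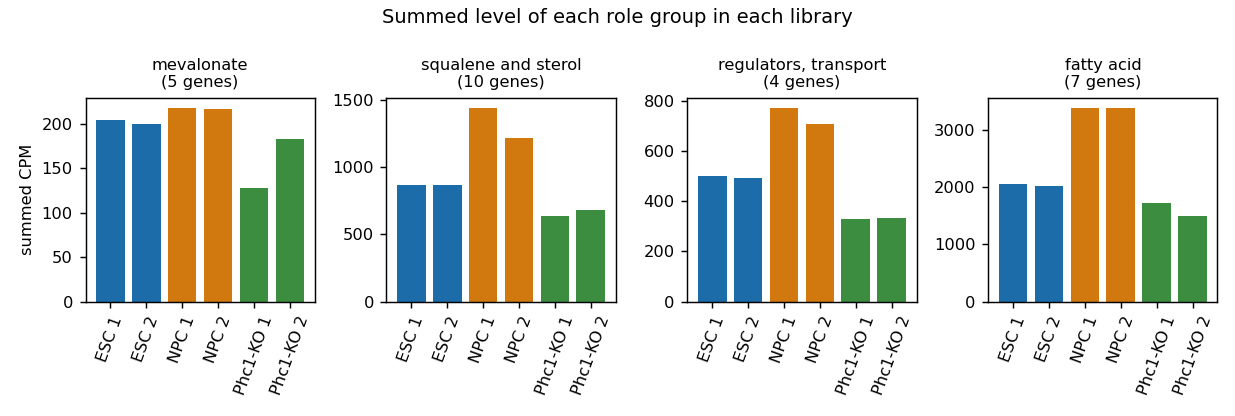
Summed CPM of the genes of each role in each of the 6 libraries (linear axes from 0, each panel on its own scale). The fatty acid panel runs from 1505 CPM in a Phc1-KO library to 3398 CPM in an NPC library, and the mevalonate panel shows the Phc1-KO pair apart, at 128 and 183 CPM.

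By role, the summed level rose from ESC to NPC least in the mevalonate branch (205 and 200.4 CPM against 219 and 217 CPM). The squalene and sterol enzymes summed to 871 and 867 CPM in ESC, 1445 and 1218 CPM in NPC, and 636 and 680 CPM in Phc1-KO. The fatty acid genes summed to 2052 and 2019 CPM in ESC, 3398 and 3386 CPM in NPC, and 1734 and 1505 CPM in Phc1-KO. The order of the 3 groups was the same for every role in these sums, and Scd2 alone made up most of the fatty acid difference.

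Levels were compared between genes only after division by exon length, as CPM per kilobase of exon. In ESC, Acly (116 CPM per kilobase) and Scd2 (110.3) led the set, followed by Insig1 (51.5). In NPC the first place went to Scd2 (293), ahead of Acly (129.99), Scd1 (85.0) and Cyp51 (82.5). In Phc1-KO the leading pair was Acly (108) and Scd2 (63.0), whose libraries did not overlap. In every group the 3 lowest places included Acss2 and Idi1, with Acss2 at 1.99 CPM per kilobase in ESC, 4.85 in NPC and 1.10 in Phc1-KO. The exon length counts every annotated transcript, and for Acss2 it comes to 10163 bases, which lowers its value on this scale.

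The spread within pairs differed between the groups. Between the 2 libraries of a group, the median absolute log2 ratio over the 26 genes was 0.05 in ESC, 0.16 in NPC and 0.24 in Phc1-KO, against 0.09, 0.29 and 0.29 over all genes. The number of reads that the counting assigned to no feature for each read on a gene was 1.08 in Phc1-KO replicate 1 and 0.661 in Phc1-KO replicate 2, the widest gap of any group, and its part in the Phc1-KO values was not tested.

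Other genes of the same metabolism were counted from lists of 54 genes, of which 53 were tested. Beside the counts of every list stand the shares over all genes. In NPC against ESC these were 30.4% higher and 30.9% lower, and in Phc1-KO against ESC 4.91% higher and 5.75% lower. The share called higher in NPC was 25% for other sterol synthesis and 25% for SREBP processing, near that of all genes. Of 4 other sterol synthesis genes, 1 rose in NPC against ESC and 0 were called in Phc1-KO against ESC. Sc5d, a late sterol desaturase, rose in NPC (log2 fold change 1.10 ± 0.16, adjusted p = 0.00106). Acat2, which starts the branch by joining acetyl-CoA units, gave -0.02 in NPC and -0.11 in Phc1-KO against ESC. Of 4 genes that process SREBP, 1 rose in NPC and 0 were called in Phc1-KO against ESC. That gene was Scap, the escort of SREBP, with a log2 fold change of 1.44 ± 0.20 in NPC (adjusted p = 0.000789), while Insig2 gave 0.31 and Mbtps1, the first protease, 0.09.

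Of 6 genes of sterol uptake and lysosomal transport, 4 rose in NPC against ESC and 0 fell, and 2 fell in Phc1-KO against ESC and 0 rose. Vldlr, a lipoprotein receptor, was at 35.1 and 37.2 CPM in ESC, 91.5 and 79.1 CPM in NPC, and 13.9 and 13.9 CPM in Phc1-KO. It was called in both directions, at 1.24 ± 0.14 in NPC (adjusted p = 0.000391) and -1.38 ± 0.15 in Phc1-KO (adjusted p = 0.00543) against ESC. Scarb1, the HDL receptor, fell in Phc1-KO (log2 fold change -1.23 ± 0.29, adjusted p = 0.0415). Stard3 (1.48), Npc1 (0.49) and Npc2 (0.45) were the other genes that rose in NPC on the log2 scale. Npc1 and Npc2 move cholesterol out of late endosomes and lysosomes. The calls of Npc1 and Npc2 were lost with the ESC pair counted as 1 or without either ESC library. That of Npc1 was also lost without NPC replicate 1.

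Of 10 genes for the sterol-sensing LXR receptors, efflux and storage, 2 rose and 3 fell in NPC against ESC, and 0 were called in Phc1-KO against ESC. Abcg1, a sterol exporter, fell to 1.97 and 1.75 CPM in NPC from 26.03 and 26.8 CPM in ESC (log2 fold change -3.82 ± 0.21, adjusted p = 2.11e-05). Cyp46a1, the brain cholesterol hydroxylase, rose by 2.74 ± 0.37 on that scale. Nr1h2, an LXR, fell (-0.59, adjusted p = 0.0224; lost with the ESC pair counted as 1 or without ESC replicate 1, ESC replicate 2 or NPC replicate 2), while Nr1h3 gave 0.59 and was not called. Abca1, another exporter, was at 95.6 and 94.3 CPM in ESC and at 20.3 and 83.0 CPM in NPC, a pair so far apart that no call was made.

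Of 18 other genes of fatty acid synthesis, elongation and desaturation, 10 rose and 5 fell in NPC against ESC, and 2 fell in Phc1-KO against ESC. Thrsp, a lipogenic factor, rose (log2 fold change 4.98 ± 0.30), as did Me1, malic enzyme (1.85 ± 0.20). Mlxipl, which encodes the carbohydrate-responsive factor ChREBP, fell (-4.71 ± 0.44), as did Acacb (-2.15 ± 0.19), the carboxylase isoform tied to oxidation, and the citrate carrier Slc25a1 (-0.88 ± 0.16). The genes that fell in Phc1-KO against ESC were Elovl7 (-2.34 ± 0.34, adjusted p = 0.0113), an elongase, and Acsl3 (-0.92 ± 0.12, adjusted p = 0.00891), an acyl-CoA synthetase. The 4 genes of these lists called in Phc1-KO against ESC (Vldlr, Scarb1, Elovl7 and Acsl3) all lost their call with the ESC pair counted as 1, without ESC replicate 1 or without ESC replicate 2. Without Phc1-KO replicate 2 all but Acsl3 lost it, and without Phc1-KO replicate 1 Scarb1 and Elovl7 did.

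Of 11 fatty acid oxidation genes tested, 9 rose and 1 fell in NPC against ESC, and 0 were called in Phc1-KO against ESC. Ppargc1a, a coactivator of oxidative metabolism, was at 0.185 and 0.182 CPM in ESC and at 43.5 and 30.6 CPM in NPC (log2 fold change 7.60 ± 0.41). Ppara, the receptor that drives oxidation genes, rose by 3.03 ± 0.38, and the carnitine transferases Cpt1a and Cpt1c rose by 1.004 ± 0.30 and 1.03 ± 0.14 on the log2 scale, the former with its call lost when the ESC pair was counted as 1 or any 1 library other than NPC replicate 1 was left out. Cpt1b was under the count filter. Genes of synthesis and of oxidation both held members that rose in NPC, where 30.4% of all genes rose.

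**Figure D4:**
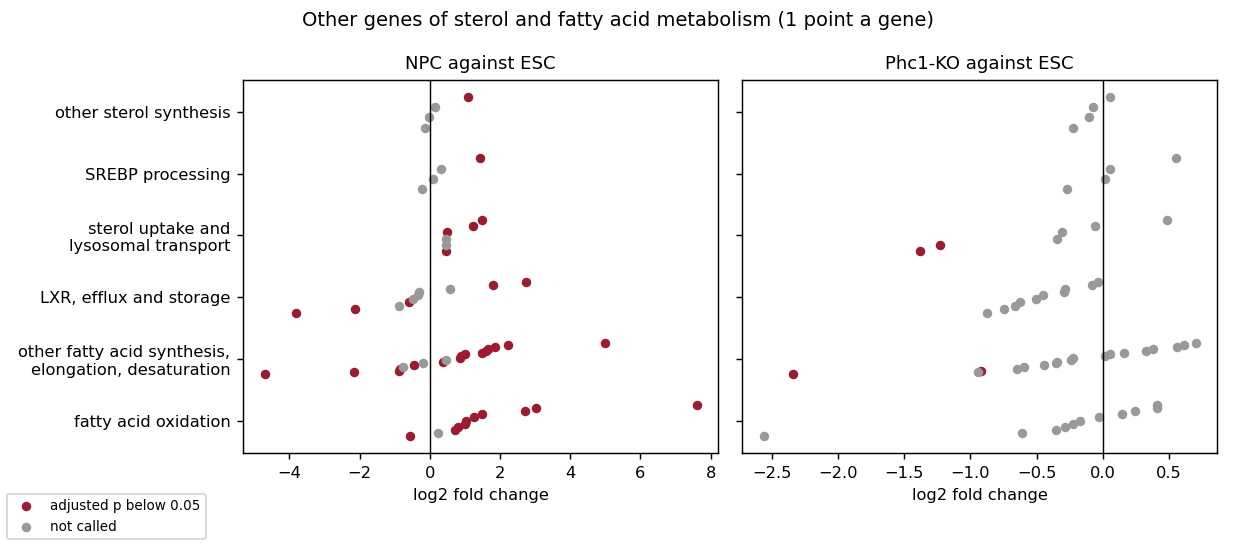
Log2 fold change of the other genes of sterol and fatty acid metabolism, 1 point a gene and 1 row a list, in NPC against ESC (left) and Phc1-KO against ESC (right; the horizontal scales differ); coloured points have an adjusted p below 0.05. On the left, 9 of the 10 coloured oxidation points lie to the right of 0, and on the right the few coloured points, such as Vldlr at -1.38, all lie to the left.

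In bulk RNA, fewer cells of a type and less RNA per cell cannot be told apart. Of the marker lists, fibroblast (feeder) genes summed to 387 and 376 CPM in ESC, 6838 and 10943 CPM in NPC, and 885 and 710.1 CPM in Phc1-KO. All 7 were called higher in NPC and 4 of 7 higher in Phc1-KO against ESC, beside 30.4% and 4.91% of all genes. Postn changed most in Phc1-KO, at 4.63 and 4.93 CPM in ESC but 168 and 198 CPM in Phc1-KO. Of the 3 not called there, Col3a1 lay below ESC in both Phc1-KO libraries (log2 fold change -0.28 ± 0.22). Col1a1 overlapped ESC (0.13 ± 0.37) and Col1a2 lay above it (0.62 ± 0.38). Astrocyte genes (5 of 5 higher in NPC) summed to 59.8 and 60.1 CPM in ESC, 938 and 1222 CPM in NPC, and 40.01 and 49.3 CPM in Phc1-KO. Oligodendrocyte genes, of a lineage known for cholesterol synthesis, summed to 34.6 and 33.3 CPM in ESC, 46.9 and 38.6 CPM in NPC, and 32.6 and 31.7 CPM in Phc1-KO, with Mag at 0 in both ESC libraries and in NPC replicate 1 and Sox10 at 0 in NPC replicate 2. Of that list Cnp was higher in NPC against ESC (log2 fold change 1.12 ± 0.20) and made up most of the NPC sum, and Mbp was lower (-2.72 ± 0.40). Neuron genes summed to 38.3 to 59.3 CPM across the 6 libraries, with 3 higher (Dcx, Snap25 and Syt1) and 1 lower (Tubb3, -3.09 ± 0.21) in NPC against ESC and 0 called in Phc1-KO against ESC. Macrophage genes summed to 28.0 and 27.7 CPM in ESC, 3.81 and 3.44 CPM in NPC, and 10.6 and 11.2 CPM in Phc1-KO, with Emr1 at 0 in both NPC libraries. The part of these other cell types in the sterol and fatty acid gene values was not tested.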

How the data were processed

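Ribosome-depleted total RNA of 6 libraries was sequenced from 1 end for 50 bases, per the labels' protocols. The deposited files give whole-number read counts per Ensembl gene, 1 table a library; STAR, HTSeq and build mm9 are named in the submitters' processing notes, with versions, annotation and strand setting not given in the sources used here. 5 tally rows (such as reads on no feature) were kept out of library sizes. Symbols came from GENCODE M1 on mm9, which named 37205 of 37620 identifiers and left 415 unnamed.

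Genes were kept by edgeR's filterByExpr (minimum count 10, minimum total 15), leaving 17489. edgeR 4.0.16 in R 4.3.3 fitted TMM-scaled counts with 1 term a group over all 6 libraries (3 residual degrees of freedom) and a quasi-likelihood F test; p-values were Benjamini-Hochberg adjusted over all genes tested in a comparison, with a threshold of 0.05. Standard errors were derived from the F statistic (absolute log2 fold change over the root of F). The procedure was tested on simulated data.

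All members with a matched identifier (26) were described; of the other pathway genes, the first 3 of each list and the 2 largest called changes in each comparison with ESC were named, except genes not reported here. Chosen after their values were seen were the marker genes named singly. The members and lists were chosen with earlier results of these data known. Alternatives were DESeq2 1.42.0, limma-voom (limma 3.58.1), a test against a 2-fold change, 3 other scalings, 2 other filters, fits of only the groups compared, a replicate block, the ESC pair summed to 1, and each library left out, 17 in all. Overlapping genes and shared reads can blur counts where strand was not used.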

Additional observations from a re-analysis of the deposited data

How the results depend on the processing

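The counts of members called lower in Phc1-KO against ESC and of all genes called there depended most on the setting. With a test against a 2-fold change, 4 members were higher and 0 lower in NPC against ESC, 0 were lower in Phc1-KO against ESC and 7 were lower in Phc1-KO against NPC, among 5213, 178 and 5779 genes called in those comparisons. With the ESC pair counted as 1, 0 members were lower in NPC against ESC and 0 in Phc1-KO against ESC, and 145 genes in all were called in the latter. A fit of only the groups compared called 3899 genes in Phc1-KO against ESC, and upper-quartile scaling called 2 members lower in NPC against ESC. Leaving out 1 library at a time gave 0 to 3 members lower in NPC against ESC, 0 to 10 lower in Phc1-KO against ESC, 0 to 2 higher in Phc1-KO against NPC, and 92 to 3715 genes in all called in Phc1-KO against ESC; with 1 library left in a group, it is assumed to vary like the others. Among all genes in Phc1-KO against ESC, 858 higher and 1006 lower calls became 683 and 1223 with total-count scaling. The replicate numbers did not pair the libraries (correlation of deviations 0.0174 for ESC with NPC, 0.0202 for ESC with Phc1-KO and -0.0207 for NPC with Phc1-KO); with the replicate block, the counts above were 11 higher and 1 lower in NPC against ESC, 6 lower in Phc1-KO against ESC and 17 lower in Phc1-KO against NPC, and 10424, 1427 and 11061 genes in all were called. The causes were not tested.

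Values that changed sign were small and not called in the setting concerned. The log2 fold change of Lss in NPC against ESC was -0.081 with upper-quartile scaling, -0.022 with total-count scaling, -0.0023 with only the groups compared, -0.025 with the ESC pair counted as 1, and -0.183 to 0.196 with 1 library left out. That of Srebf2 in NPC against ESC was -0.012 and that of Mbtps1 -0.0073 with upper-quartile scaling. In Phc1-KO against ESC, Elovl6 was -0.0205 with upper-quartile and -0.069 with total-count scaling, and Mvk -0.017 with total-count scaling. In Phc1-KO against NPC, Ebp was 0.0077 with upper-quartile scaling. With 1 library left out in turn, the range in NPC against ESC was -0.622 to 0.045 for Elovl6, -0.176 to 0.041 for Fasn and -0.135 to 0.018 for Pmvk. In Phc1-KO against ESC it was -0.099 to 0.031 for Acaca, -0.076 to 0.104 for Elovl6, -0.508 to 0.111 for Fasn and -0.197 to 0.308 for Mvk. In Phc1-KO against NPC it was -0.259 to 0.164 for Ebp, -0.025 to 0.641 for Elovl6 and -0.428 to 0.191 for Fasn. Of the ends of these ranges, Elovl6 at -0.622 and 0.641 and Fasn at -0.428 passed the test.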

Other observations

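The desaturases of the polyunsaturated branch were named after their values were seen. Fads1, the delta-5 desaturase, was at 63.4 and 64.7 CPM in ESC, 313 and 289 CPM in NPC, and 55.1 and 54.6 CPM in Phc1-KO. Fads2, the delta-6 desaturase, was at 26.03 and 25.1 CPM in ESC, 73.8 and 70.3 CPM in NPC, and 22.8 and 20.4 CPM in Phc1-KO. For both genes NPC lay far above the other groups and the Phc1-KO libraries lay just below ESC. In NPC against ESC the log2 fold change was 2.23 ± 0.12 for Fads1 (edgeR adjusted p = 2.13e-05) and 1.496 ± 0.14 for Fads2 (adjusted p = 0.000177). In Phc1-KO against ESC it was -0.22 ± 0.12 for Fads1 (adjusted p = 0.253) and -0.24 ± 0.14 for Fads2 (adjusted p = 0.304).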
